A study of Mus musculus with 8 samples.

Results

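A set of 40 genes of fibroblasts and mural cells, with the collagens left out, was followed through RNA of mouse thyroid follicular cell organoids (TFCOs), thyroid tissue and lung tissue. Members were the rows of the deposited normalized count table whose symbol was on a fixed list, and all 40 listed symbols were found among the 16119 genes of the table. Of these, 31 were assigned to fibroblasts and 9 to mural cells. The fibroblast genes comprised 7 small leucine-rich proteoglycans, 10 genes of elastic fibres and their crosslinking, 9 adhesive and matricellular proteins, 2 secreted proteins that bind or process collagen, and 3 genes of receptors, cell surface and cytoskeleton. The mural genes comprised 4 contractile genes of smooth muscle and 5 pericyte genes. Symbols are written in capitals, as the table lists them.

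The thyroid gland is built from follicles of epithelial cells that are held in a loose connective tissue with a dense capillary bed. Fibroblasts of that connective tissue secrete collagen and the proteins that space, bind and crosslink its fibrils, while mural cells sit on the vessel wall, as pericytes on capillaries and as smooth muscle cells on larger vessels. The organoids were started from cells of digested thyroid tissue, which were plated in a basement membrane extract, and they grow without a vessel bed. Some of the genes named here are also made by epithelial cells in culture, so that no single member defines a cell type by itself.

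All samples came from wild type C57BL/6 mice, and no treatment was applied. The TFCOs were 2 lines, mThy14 and mThy16, each started from the thyroid of 1 mouse and each sequenced at an early and at a late passage stage, in a medium with R-spondin, forskolin, EGF, FGF10 and the TGF-beta receptor inhibitor A83-01. The tissues were 2 thyroid tissues and 2 lung tissues, with the lung serving as an unrelated tissue. The study states that surplus material of female mice gave rise to the organoids, and the age of the animals is not given in the sources used here. In every group, 2 libraries were measured, and early and late TFCOs held the same 2 lines.

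A normalized count is the number of reads on a gene divided by 1 size factor per library. Between 9755081 and 16904865 reads per library lay on genes. The values are not divided by gene length, so that levels are compared between libraries and not between genes. As a check of the labels, the thyroglobulin gene TG stood at 126441, 12225, 64646 and 9532 in TFCOs, at 1526002 and 2175016 in thyroid tissues and at 27.6 and 263 in lung tissues, and the surfactant gene SFTPC stood at 7.03 to 266 in TFCOs, at 9.80 and 5.53 in thyroid tissues and at 241128 and 180943 in lung tissues. The 8 libraries fell into 2 sets that cut across the groups: 44 genes read 0 in both lungs and in thyroid tissue 2, yet reached at least 50 in thyroid tissue 1 and each TFCO library, and for 16 genes it was the other way round. None of the 40 members was among these genes. Results are therefore also given from a fit with the set of libraries as a term, in which TFCOs are compared with thyroid tissue 1 and thyroid tissue 2 with the lung tissues. TFCO values are listed below with the early libraries of mThy14 and mThy16 first and the late libraries of mThy14 and mThy16 after them.

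The first comparison asked how far the mesenchymal genes of the gland were still present in organoids. Against thyroid tissue, 22 of the 40 members were lower in TFCOs and 0 were higher, compared with 3.05% of all 14703 tested genes lower and 0.599% higher (limma on log2(normalized counts + 1), adjusted p under 0.05, 2 lines against 2 tissues). The members lower in TFCOs were 19 of the 31 fibroblast genes and 3 of the 9 mural genes. The median log2 difference of the members was -4.21, and it was -4.52 for the fibroblast genes, -2.35 for the mural genes and 0.05 over all tested genes. All 40 members passed the filter of 10 normalized counts in at least 2 libraries, while 27 reached that level in at least 2 of the TFCO libraries, so that the other members passed only through their tissue values. In bulk RNA, fewer cells of a type and less RNA per cell cannot be told apart.

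Counted without a test, all 4 TFCO libraries lay below both thyroid tissues for 30 of the 40 members, against 17.3% of all tested genes, and all 4 lay above both for FN1 and CNN1, against 17.2%. The members below were 24 fibroblast and 6 mural genes. With the set of libraries as a term, 12 members were lower in TFCOs, against 1.03% of all tested genes, and the members' median difference was -3.78. These were the fibroblast genes LUM, DCN, BGN, OGN, ASPN, FBLN1, MFAP5, SPARCL1, PCOLCE, SERPINF1 and PDGFRA and the pericyte gene RGS5. The calls of FBN1, MFAP4, LOXL1, POSTN, DPT, MGP, THY1, VIM, ABCC9 and KCNJ8 were lost in that fit, at adjusted p from 0.051 to 0.12. The count of 22 was 13 with limma voom on whole reads, 12 without thyroid tissue 2, and 15 without lung tissue 1 or without lung tissue 2, whose values enter the estimate of the spread.

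**Figure D1:**
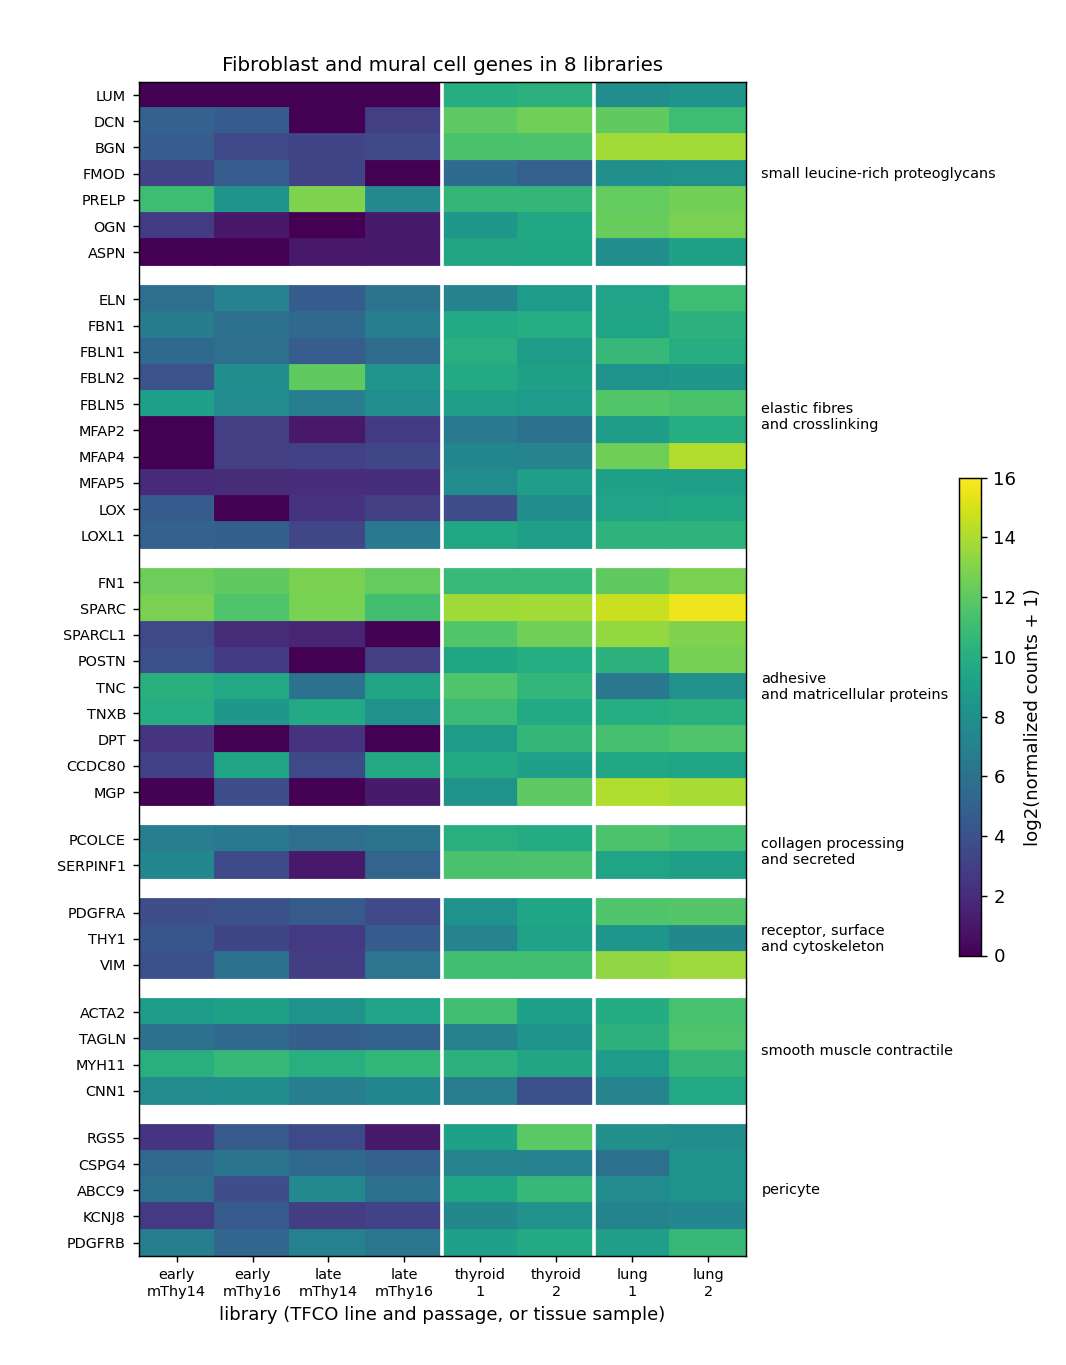
Level of each of the 40 members (rows, grouped by role) in each of the 8 libraries (columns), coloured by log2(normalized counts + 1). The 4 TFCO columns are dark for LUM, OGN, ASPN, SPARCL1, DPT and MGP, whereas FN1 and MYH11 reach the level of at least 1 thyroid tissue in all 4.

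Small leucine-rich proteoglycans coat collagen fibrils and set their spacing and diameter. Of the 7 measured, 5 passed the test as lower in TFCOs, and the median log2 difference over the 7 was -7.83. LUM, which encodes lumican, was not detected in any TFCO library, and stood at 950.4 and 1169 normalized counts in thyroid and 216 and 296 in lung. Taking the floor of 3 reads over the 4 TFCO libraries together, which is 0.839 normalized counts, the TFCO level was at least 1263-fold lower than in thyroid tissue (adjusted p = 0.0015), and the medians given above were the same with LUM set at this bound. ASPN, the asporin gene, had 2 reads over the 4 libraries, with 0, 0, 1.04 and 1.12 normalized counts, against 680.4 and 702 in thyroid and 233 and 565 in lung, a 1236-fold ratio of thyroid to TFCO with a 95% counting interval of 342 to 10204. No TFCO value of LUM or ASPN came near those of either tissue.

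DCN, which encodes decorin, was measured at 29.5, 22.8, 0 and 6.71 in TFCOs, 4228 and 5855 in thyroid and 4459.5 and 1994 in lung, and fell by 9.17 ± 0.58 (SE) on the log2 scale (adjusted p = 0.0013) against thyroid. BGN, the biglycan gene, read 23.9, 9.90, 8.33 and 10.1 in TFCOs, 2691 and 2817 in thyroid and 14340.2 and 14100.2 in lung, and fell by 7.73 ± 0.34 (SE) on the log2 scale (adjusted p = 0.00093). In both genes every TFCO library lay at under 1% of the lower thyroid tissue, the highest at 0.698% for DCN and 0.888% for BGN. OGN, which encodes osteoglycin, had 6 reads in all in TFCOs, with 368 and 736 normalized counts in thyroid, and fell by 7.83 ± 0.55 (SE) on the log2 scale (adjusted p = 0.0017). FMOD, the fibromodulin gene, was weak in thyroid tissue itself, at 45.7 and 28.6, and its values of 8.43, 23.8, 8.33 and 0 in TFCOs did not pass the test (log2 difference -2.44, adjusted p = 0.17).

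PRELP, a proteoglycan that links basement membranes to the collagen beneath, was the only one of the 7 with a TFCO library above either thyroid tissue. It read 2124, 296, 7589.8 and 187 in TFCOs, 1549 and 1568 in thyroid and 4627 and 6234 in lung. Both libraries of mThy14 lay above both thyroid tissues and both libraries of mThy16 lay below them. The mean of the 4 libraries was 164% of the thyroid mean, while the log2 difference over the lines was -0.68 ± 1.14 (SE), adjusted p = 0.75, so the mean and the fit differed in sign.

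**Figure D2:**
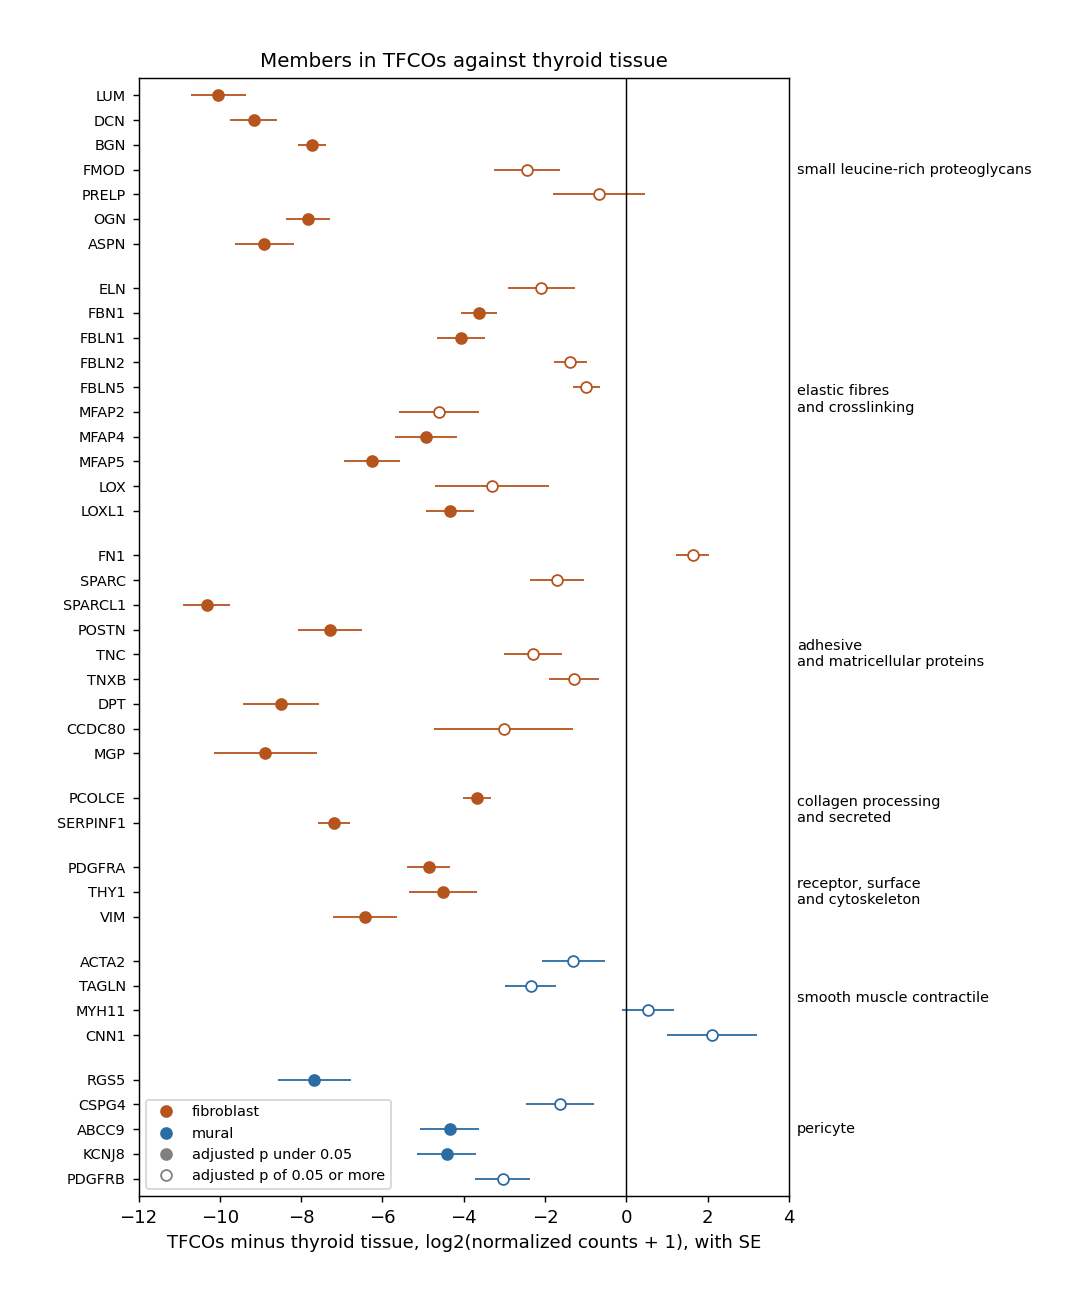
Difference of each member between TFCOs (2 lines, passages averaged) and thyroid tissue (2 samples) on the log2(normalized counts + 1) scale, with its standard error from limma. Filled points mark the 22 members at an adjusted p under 0.05, all of them left of 0, and open points the other 18, among them all 4 smooth muscle genes.

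Elastic fibres consist of an elastin core, a fibrillin sheath and the fibulins and lysyl oxidases that assemble and crosslink them. Of these 10 genes, 5 were lower in TFCOs, with a median log2 difference of -3.85, and all 10 differences were negative, although that of FBLN2 changed sign under alternatives. MFAP5, a microfibril glycoprotein, was at 2.81, 2.97, 3.12 and 3.35 in TFCOs, or 11 reads in all, against 200.3 and 479 in thyroid and 569.6 and 499 in lung, and fell by 6.26 ± 0.69 (SE) on the log2 scale (adjusted p = 0.0075). MFAP4, another microfibril-associated protein, was at 0, 6.93, 7.29 and 8.94 in TFCOs, 160 and 148 in thyroid and 5730.2 and 18231 in lung, and fell by 4.93 ± 0.76 (SE) on the log2 scale (adjusted p = 0.019, and 0.092 with the set of libraries as a term). Its thyroid level was itself far below the lung level.

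FBN1, which encodes the fibrillin of microfibrils, was present in every TFCO library, at 97.0, 57.4, 41.6 and 109.5, and reached at most 13.5% of the lower thyroid tissue, and fell by 3.62 ± 0.44 (SE) on the log2 scale (adjusted p = 0.0096, and 0.054 with the set of libraries as a term). FBLN1 stood at 40.8, 54.5, 23.9 and 47.0 in TFCOs and 1091 and 431 in thyroid (adjusted p = 0.015), and LOXL1, a lysyl oxidase that acts on elastin, at 29.5, 27.7, 9.37 and 90.5 and 751 and 498 (adjusted p = 0.013, and 0.055 with that term). The elastin gene itself, ELN, lay between 22.9 and 131 in TFCOs and at 143 and 422 in thyroid, and its difference of -2.10 did not pass the test (adjusted p = 0.24). MFAP2 also missed it, at an adjusted p of 0.054, with TFCO values from 0 to 6.93 and thyroid values of 92.5 and 64.5.

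LOX, the lysyl oxidase of collagen and elastin, differed by 4.16 on the log2 scale between the thyroid tissues, and by -3.31 between TFCOs and thyroid tissue. It was at 22.5, 0, 4.16 and 6.71 in TFCOs, at 12.0 and 231 in thyroid and at 622 and 729 in lung, and missed the test (adjusted p = 0.27). FBLN5, which tethers elastin to cells, was at 521, 203, 106 and 240.3 in TFCOs, 497 and 414 in thyroid and 3242 and 2704 in lung. TFCO and thyroid values overlapped through early mThy14 alone, and the difference missed the test (log2 difference -0.99 ± 0.33 (SE), adjusted p = 0.18).

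Adhesive and matricellular proteins hold cells to the matrix or tune that contact. Here 4 of 9 genes were lower in TFCOs, and the median log2 difference was -3.01. SPARCL1 was at 9.84, 2.97, 2.08 and 0 in TFCOs, 3259 and 5832 in thyroid and 10766 and 8030.2 in lung, and fell by 10.33 ± 0.58 (SE) on the log2 scale (adjusted p = 0.00098). DPT, the dermatopontin gene, had 7 reads in the TFCO libraries, all in mThy14, with 4.22, 0, 4.16 and 0 normalized counts, whereas thyroid tissues held 431 and 1554 and lung tissues 2541 and 3072 normalized counts, and fell by 8.49 ± 0.93 (SE) on the log2 scale (adjusted p = 0.0074). POSTN, which encodes periostin, was at 14.1, 5.94, 0 and 6.71 in TFCOs and 713 and 972 in thyroid (adjusted p = 0.0074). MGP, an inhibitor of matrix calcification, read 0, 12.9, 0 and 1.12 in TFCOs but also differed 14.7-fold between the thyroid tissues, at 286 and 4209.7, with 17783 and 15363 in lung. It fell by 8.88 ± 1.27 (SE) on the log2 scale (adjusted p = 0.015). With the set of libraries as a term SPARCL1 alone of these 4 was called, and DPT, POSTN and MGP had adjusted p of 0.051, 0.054 and 0.054.

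SPARC, a collagen-binding protein that basement membranes also hold, was by contrast among the 3 members with the most normalized counts in TFCOs. It was at 6960.1, 3152, 6879.9 and 2235 in TFCOs, 13498 and 14331 in thyroid and 25919.6 and 48532 in lung. All TFCO libraries lay below both thyroid tissues, at no more than 51.6% of the lower of them, and the log2 difference of -1.70 ± 0.66 (SE) did not pass the test (adjusted p = 0.24). TNXB, a tenascin, lay at 969.8, 351, 802 and 257 in TFCOs and 1913 and 823 in thyroid (adjusted p = 0.31). Of its transcript, 6.63% of all 50-base stretches also occur in its neighbour copy Tnxa, so its reads may be split. Of the other members, 34 shared no 50-base stretch with another gene, and 5 shared under 5%.

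Fibronectin is the matrix protein on which many cells, epithelial ones included, spread through integrins. Its gene FN1 stood higher in all 4 TFCO libraries than in both thyroid tissues. The values were 5536, 4422, 7189 and 4865 in TFCOs, 1723 and 1749.9 in thyroid and 4355 and 6950.4 in lung, which gives a TFCO mean of 317% of the thyroid mean. The log2 difference of 1.64 ± 0.41 (SE) did not pass the test with passages averaged (adjusted p = 0.085), and of the alternatives run it passed only with the 4 TFCO libraries as separate samples (adjusted p = 0.014), which counts each line more than once.

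Both genes of secreted proteins that bind or process collagen and all 3 genes of receptors, surface and cytoskeleton were lower in TFCOs. PCOLCE, an enhancer of procollagen cleavage, was at 105, 91.1, 52.0 and 71.5 in TFCOs, 1106 and 896 in thyroid and 2859.7 and 2317 in lung, and fell by 3.67 ± 0.35 (SE) on the log2 scale (adjusted p = 0.0051). SERPINF1, a secreted serpin of fibroblasts, was at 160.2, 10.9, 1.04 and 33.5, 2751 and 2876 and 645 and 491, respectively, and fell by 7.20 ± 0.40 (SE) on the log2 scale (adjusted p = 0.00098). Within the TFCOs it ranged more widely than PCOLCE, with its highest value in the early and its lowest in the late library of mThy14.

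PDGFRA, the receptor that marks fibroblasts in many organs, was at 12.6, 14.9, 20.8 and 11.2 in TFCOs, 287 and 701 in thyroid and 3118 and 3382 in lung, and fell by 4.86 ± 0.53 (SE) on the log2 scale (adjusted p = 0.0074). VIM, which encodes the intermediate filament of mesenchymal cells, was at 14.1, 61.4, 6.25 and 74.9 in TFCOs, 2313 and 2301 in thyroid and 10254 and 12804 in lung, and fell by 6.43 ± 0.79 (SE) on the log2 scale (adjusted p = 0.0096, and 0.068 with the set of libraries as a term). The TFCO values of VIM were at most 3.26% of the lower thyroid tissue, and both libraries of mThy16 lay above both of mThy14. THY1, a surface glycoprotein of fibroblasts, was at 18.3, 8.91, 5.20 and 22.4 in TFCOs, 145 and 597 in thyroid and 339 and 177 in lung. It fell by 4.52 ± 0.84 (SE) on the log2 scale (adjusted p = 0.036), a call that several alternatives lost, with an adjusted p of up to 0.12.

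Pericyte genes were lower in TFCOs in 3 of 5 cases, with a median log2 difference of -4.35. RGS5, a regulator of G protein signalling that marks pericytes, was at 4.22, 21.8, 10.4 and 1.12 in TFCOs, 575 and 3870.4 in thyroid and 247 and 216 in lung, and fell by 7.67 ± 0.89 (SE) on the log2 scale (adjusted p = 0.0085). The subunits of the pericyte potassium channel followed: ABCC9 at 56.2, 12.9, 182 and 55.9 in TFCOs and 715 and 1666 in thyroid (adjusted p = 0.026), and KCNJ8 at 5.62, 20.8, 6.25 and 7.83 and 165 and 265 (adjusted p = 0.024). With the set of libraries as a term, RGS5 kept an adjusted p of 0.028, while ABCC9 and KCNJ8 had 0.12 and 0.066. Within TFCOs, ABCC9 was highest in late mThy14 and lowest in early mThy16.

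PDGFRB, the receptor through which pericytes are recruited to vessels, was at 111, 35.7, 122 and 76.0 in TFCOs, 532 and 792 in thyroid and 502 and 1676 in lung. All TFCO libraries lay below both thyroid tissues, and the log2 difference of -3.04 ± 0.68 (SE) just missed the threshold (adjusted p = 0.062). CSPG4, the NG2 proteoglycan, was at 31.3 to 69.3 in TFCOs, 145 and 133 in thyroid and 55.3 and 270 in lung. Its TFCO libraries also all lay below both thyroid tissues, and the difference missed the test (adjusted p = 0.34).

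None of the 4 contractile genes of smooth muscle passed the test against thyroid tissue, and their median log2 difference was -0.38. ACTA2, which encodes smooth muscle actin, was at 436, 554, 272 and 610.4 in TFCOs, 2319 and 525 in thyroid and 929 and 2624 in lung. TFCO values overlapped those of thyroid tissue, since thyroid tissue 2 lay below 2 of the TFCO libraries (log2 difference -1.30, adjusted p = 0.39). TAGLN, the transgelin gene, was at 59.0, 41.6, 26.0 and 31.3 in TFCOs, 126 and 303 in thyroid and 1248 and 3001 in lung, so that its groups did not overlap (log2 difference -2.35 ± 0.63 (SE), adjusted p = 0.10). MYH11, the smooth muscle myosin heavy chain, was at 1103, 1668, 1069 and 1470 in TFCOs, 1206 and 668 in thyroid and 425 and 1548 in lung, with a TFCO mean of 142% of the thyroid mean (adjusted p = 0.64). CNN1, which encodes calponin, was at 202, 228, 109 and 162 in TFCOs, 105 and 13.8 in thyroid and 146 and 764 in lung (adjusted p = 0.35), and its 2 thyroid tissues differed from each other more than TFCOs differed from thyroid tissue 1.

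These contractile genes have close relatives that are broadly expressed, to which their levels were compared in each library. ACTA2 ranged from 1.61% to 2.71% of ACTB, the cytoplasmic beta actin gene, over the 4 TFCO libraries, against 9.66% and 3.28% in the thyroid tissues. MYH11 ranged from 8.31% to 10.4% of the non-muscle myosin gene MYH9 in TFCOs, below the 15.1% and 14.2% of the thyroid tissues, which lay closer to each other. CNN1 ranged from 2.03% to 3.08% of CNN3, a range that held thyroid tissue 1 at 2.98% and not thyroid tissue 2 at 0.583%. TAGLN varied more widely, from 0.527% to 1.81% of TAGLN2, with 2.81% and 7.60% in the thyroid tissues. The enteric smooth muscle actin ACTG2, which is no member, was at 17.2% to 18.2% of the gamma actin ACTG1 in TFCOs and at 20.7% in thyroid tissue 1, but at 0.248% in thyroid tissue 2 and at 1.49% and 6.48% in lung, which follows the sets of libraries. Of the relatives, MYH9 and CNN3 were themselves higher in all 4 TFCO libraries than in both thyroid tissues. ACTB, ACTG1 and TAGLN2 overlapped between them. Whether reads of the relatives were counted on the contractile genes was not tested.

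How alike these genes are is shown by the actins, whose coding sequences were taken from GENCODE M21 transcripts (build GRCm38). Over the aligned coding bases, Acta2 was 83.0% identical to Actb, 81.6% to Actg1, 83.8% to Actg2 and 85.4% to Acta1. The lines below hold the 90 coding bases at which Acta2 and Actb are most alike, codons 303 to 332 of Acta2 (gene on the minus strand at chr19:34241090-34255590), and the aligned bases of Actb (minus strand, chr5:142903115-142906754) and Actg2 (minus strand, chr6:83512905-83536265), with bases that differ from Acta2 in capitals.
Acta2: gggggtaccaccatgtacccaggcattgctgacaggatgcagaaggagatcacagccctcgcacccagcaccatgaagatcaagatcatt
Actb: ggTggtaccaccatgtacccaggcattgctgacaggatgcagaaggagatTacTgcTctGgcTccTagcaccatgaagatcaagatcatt
Actg2: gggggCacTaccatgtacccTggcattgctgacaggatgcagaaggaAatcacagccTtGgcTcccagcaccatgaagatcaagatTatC
Actb differs from Acta2 at 7 of these 90 bases and Actg2 at 9. Over its whole transcript, ACTA2 shared 0.352% of its 50-base stretches with other genes, and MYH11 shared 0.406%, with Myh9 and Myh10. CNN1, TAGLN and ACTG2 shared none.

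**Figure D3:**
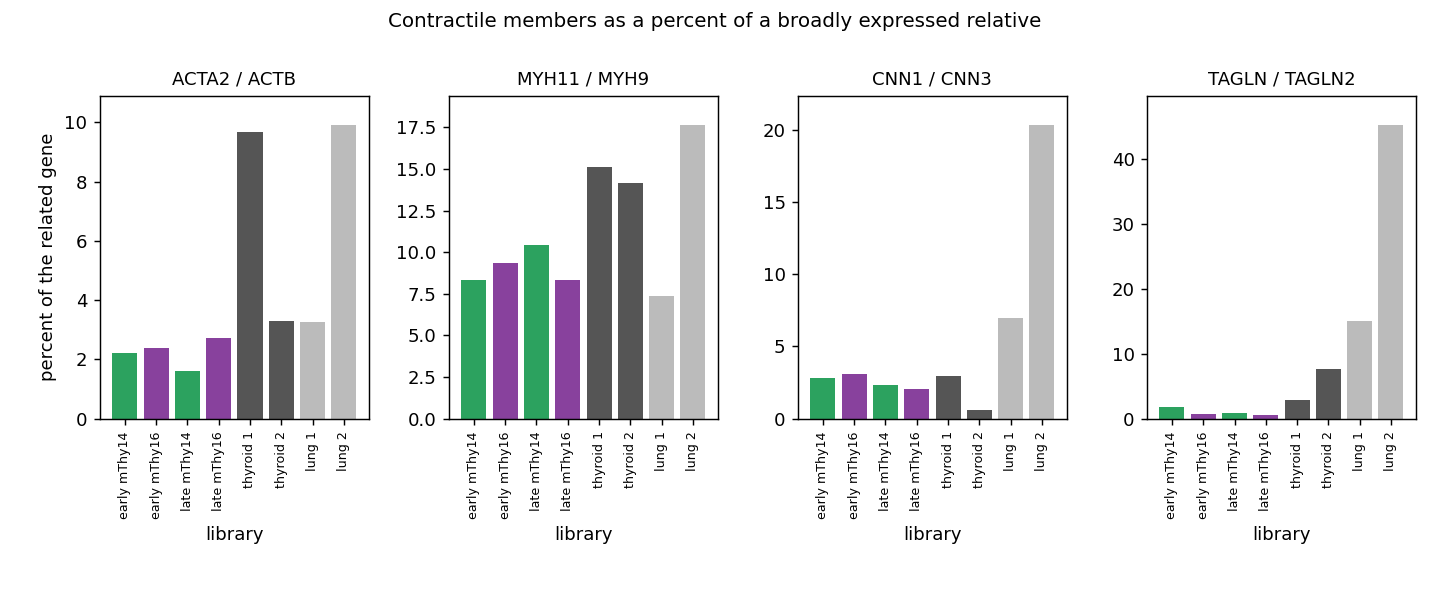
Normalized counts of each contractile member as a percent of those of a broadly expressed relative, 1 bar per library (green mThy14, purple mThy16, dark grey thyroid, light grey lung, each axis from 0). The TFCO bars span 1.61% to 2.71% for ACTA2, 8.31% to 10.4% for MYH11, 2.03% to 3.08% for CNN1 and 0.527% to 1.81% for TAGLN, and the tissue bars are more uneven, except that the thyroid bars of MYH11 are nearly level.

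The next comparison asked whether member levels changed with passage. Between late and early TFCOs, 0 of the 40 members passed the test in either direction, as did 0% of all tested genes lower and 0% higher. At an unadjusted p under 0.05 there were 3 members and 166 of all 14703 genes, and with the line as a replicate block, which pairs the early and late library of a line, there were likewise 0 calls and 224 genes at that unadjusted level. The 3 members, DCN, SPARCL1 and FBLN2, were chosen here for these p-values. DCN had a log2 difference of -3.28 ± 0.91 (SE) and SPARCL1 one of -1.90 ± 0.76 (SE), each with lower late values in both lines. SPARCL1 rested on 12 reads over the 4 TFCO libraries. FBLN2 had a difference of 4.32 ± 1.36 (SE). TNC, which was not among the 3, had one of -2.22 ± 1.03 (SE). FBLN2 and TNC each had an adjusted p of 1.

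In both TNC and FBLN2 libraries of mThy14 stood apart. FBLN2, a fibulin of vessel walls and basement membranes, was at 15.5, 215, 4385 and 321 in TFCOs, 852 and 558 in thyroid and 271 and 353 in lung, so that late mThy14 alone lay above every other library and early mThy14 below every other. Its mean over TFCOs was 175% of the thyroid mean, whereas the fitted log2 difference was -1.38 (adjusted p = 0.13), and that difference became 0.64 without early mThy14. TNC, which encodes tenascin-C of remodelled and embryonic matrix, was at 1157, 767, 60.4 and 664 in TFCOs, 3128 and 1486 in thyroid and 84.6 and 257 in lung. Here late mThy14 was the low one, at a level below both lung tissues, while the other 3 TFCO libraries lay above them.

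CCDC80, a secreted matrix protein, split by line instead of by passage. It was at 7.03, 651, 10.4 and 819 in TFCOs, 857 and 532 in thyroid and 724 and 640.4 in lung. Both libraries of mThy16 lay within the range of the tissues, and both of mThy14 lay far below, with a difference of the line means of -6.26 on the log2 scale, mThy14 minus mThy16. PRELP showed the other order, with a difference of 4.09. With 1 culture per line these line differences carry no replicate check. Across the 31 fibroblast genes, the median of mThy14 minus mThy16 was -0.07, with 13 genes higher in mThy14, 17 higher in mThy16 and 1 equal.

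**Figure D4:**
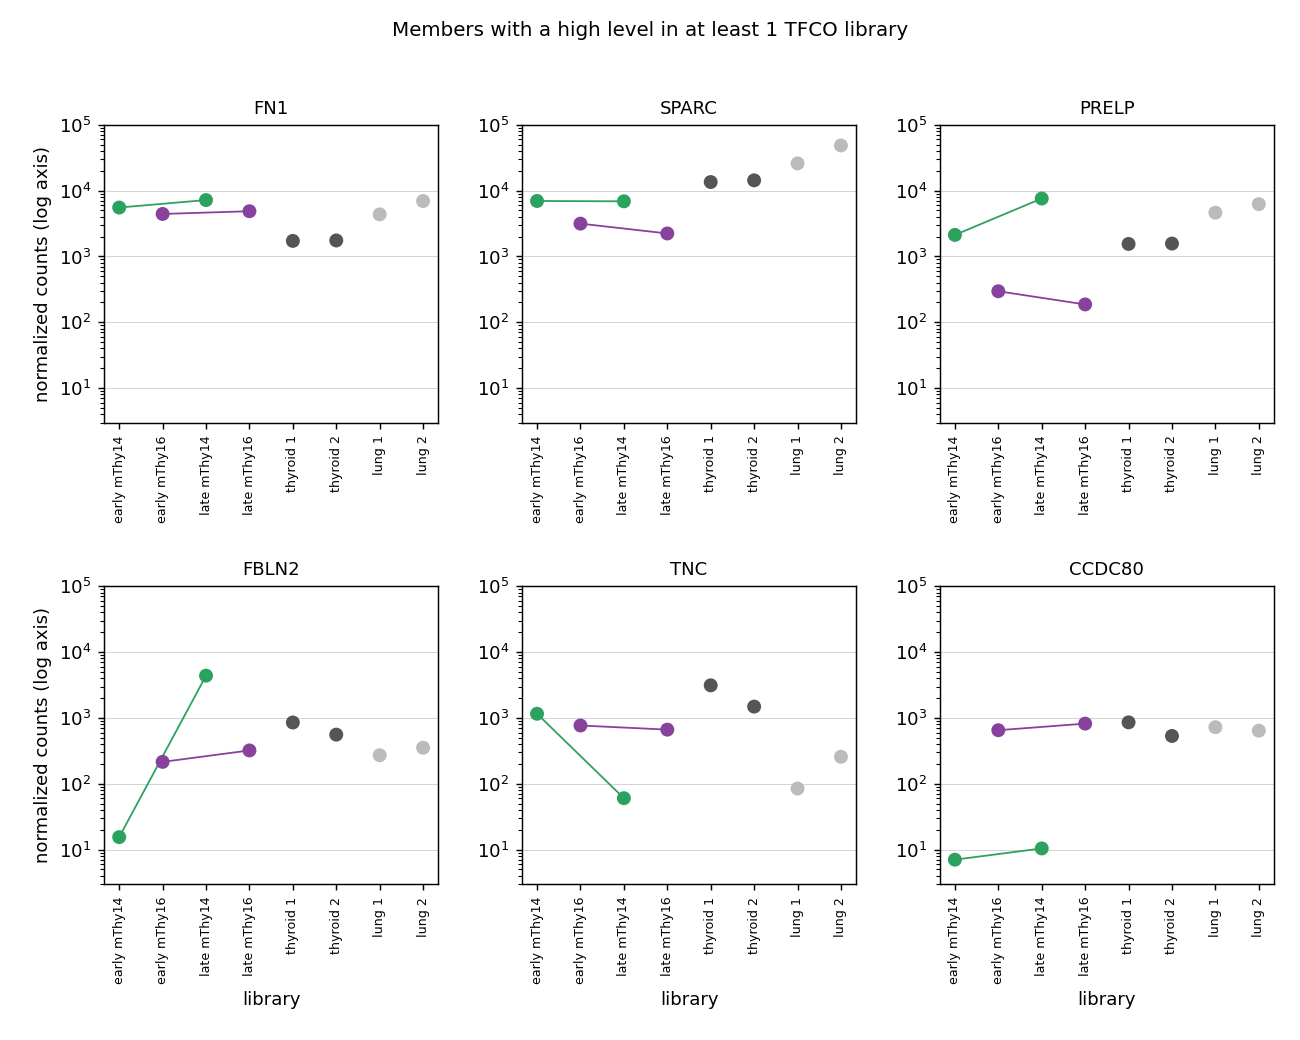
Normalized counts (log axis) of 6 members in the 8 libraries, with a line joining the early and late library of mThy14 (green) and of mThy16 (purple), and grey points for thyroid (dark) and lung (light). FN1 lies above both thyroid tissues in all 4 TFCO libraries, PRELP and CCDC80 separate by line, and FBLN2 and TNC change most between early and late mThy14.

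Lists of other genes of these cells were counted in the same way. Of 30 other fibroblast genes, 11 were lower in TFCOs than in thyroid tissue and 0 higher, beside 3.05% and 0.599% of all tested genes, with a median log2 difference of -3.31. The largest falls were those of CLEC3B (-7.58), MMP2 (-6.13), the matrix metalloproteinase of fibroblasts, and CYGB (-6.07), with adjusted p of 0.0078, 0.0021 and 0.0057. Of 20 other mural genes, 5 were lower and 0 higher, with a median of -2.75. With the set of libraries as a term, 8 of the 30 and 1 of the 20 were lower, beside 1.03% of all tested genes. Among the 5, DES, the intermediate filament of muscle, differed by -5.25, EBF2 by -5.13 and TPM2, a tropomyosin, by -4.20 (adjusted p of 0.019, 0.026 and 0.016). DES and TPM2 are also genes of skeletal muscle, whose markers were summed in each library as described next.

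Markers of other cell types moved with the members. Summed over 5 skeletal muscle markers, TFCO libraries held 1955 to 2638 normalized counts, thyroid tissues 40909 and 129971, and lung tissues 209 and 510. Most of the TFCO sum was ACTA1, at 1796 to 2442. The 6 endothelial markers summed to 193 to 528 in TFCOs, 2423 and 8209 in thyroid and 21332 to 41029 in lung, and at most 1 of the 6 was at 0 in a TFCO library. Leukocyte markers summed to 39.4 to 67.3, 704 to 1125 and 3250 to 4949, and adipocyte markers to 23.9 to 64.7, 1725 to 6254 and 380.2 to 3800.3, in the same order. Of the leukocyte markers, PTPRC and CSF1R were called lower in TFCOs than in thyroid tissue. CD68, CD3E and CD79A were not (limma, adjusted p of 0.49, 0.57 and 0.60). By these sums, thyroid tissue 2 held more endothelial, skeletal muscle and adipocyte marker RNA than thyroid tissue 1. The adipocyte sum held opposite moves. CFD (14.2 and 3661), ADIPOQ (3.27 and 1142) and CIDEC (609 and 786) were higher in thyroid tissue 2. PLIN1 (1051 and 644) and LEP (49.0 and 20.3) were higher in thyroid tissue 1. Of the endothelial markers, TEK alone was higher in thyroid tissue 1, at 551 and 492.

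The levels of the remaining lists were less uneven between TFCOs and thyroid tissue. Cartilage and tendon markers summed to 1060 to 2023 in TFCOs, 1131 to 2763 in thyroid and 58.6 to 159 in lung. This sum held opposite moves. TNMD read 28.1, 1.98, 26.0 and 0 in TFCOs and 2038 and 674 in thyroid, a log2 difference of -7.40 (limma, adjusted p = 0.041). The other genes of this list had positive differences from thyroid tissue, none of which passed the test. Schwann cell markers summed to 423 to 579, 1057 to 1134 and 700.4 to 979, and mesothelial markers to 80.5 to 118, 49.0 to 111 and 1347 to 6514. The 5 epithelial markers summed to 19992 to 31201 in TFCOs, 10982 to 18854 in thyroid and 7596 to 14903 in lung. The fibroblast members themselves summed to 10167 to 27246, 47537 to 55940 and 125837 to 169131, and the mural members to 1838 to 2651, 5888 to 8236 and 3890 to 10546. The part of these other cells in the member differences was not tested.

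Against lung tissue, 29 of the 40 members were lower in TFCOs and 0 higher, when 13.5% of all tested genes were lower and 9.83% higher. The 29 were 25 fibroblast and 4 mural genes. Among the fibroblast genes MGP fell by 12.79 ± 1.27 (SE) on the log2 scale (adjusted p = 0.0018) and OGN fell by 11.33 ± 0.55 (SE) on the log2 scale (adjusted p = 0.00022). BGN fell by 10.10 ± 0.34 (SE) on the log2 scale (adjusted p = 0.00014) and MFAP4 fell by 10.98 ± 0.76 (SE) on the log2 scale (adjusted p = 0.00055). SPARCL1 fell by 11.42 ± 0.58 (SE) on the log2 scale (limma, adjusted p = 0.00022) and DPT fell by 10.26 ± 0.93 (SE) on the log2 scale (limma, adjusted p = 0.0013). The contractile and pericyte genes had median differences of -1.39 and -3.54, and the small leucine-rich proteoglycans one of -7.99, which were not compared by a test. No library of a TFCO and no library of lung share a set, and with the set of libraries as a term 13 members were lower, against 0.986% of all tested genes. All 13 were fibroblast genes, OGN, BGN, MFAP4 and SPARCL1 among them, while MGP and DPT had adjusted p of 0.065 and 0.072. Of the other lists, 20 of 30 fibroblast genes were lower than in lung, with the largest falls in CLEC3B, FSTL1 and MXRA8, and SMOC2 was higher. Of the other mural genes, 12 of 20 were lower, with the largest fitted falls in MUSTN1, COX4I2 and PLN. MUSTN1 is among the 16 genes that followed the sets of libraries. It read 0 in all 4 TFCO libraries and in thyroid tissue 1, 158 in thyroid tissue 2 and 285 and 313 in lung. With the set term 3 of the 30 fibroblast genes and 0 of the 20 mural genes were lower and 0 higher. These values and those against thyroid tissue rest on the same TFCO libraries.

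The last comparison set the 2 tissues side by side. Thyroid tissue was lower than lung tissue for 6 members and higher for 2, against 3.16% of all tested genes lower and 2.89% higher. The median log2 difference, thyroid minus lung, was -1.37 over the 31 fibroblast genes and 0.15 over the 9 mural genes, with 0.03 over all tested genes. Among the fibroblast genes 23 differences were negative and 8 positive. Of the contractile genes 3 of 4 differences were negative, with a median of -1.79, and of the pericyte genes 4 of 5 were positive, with a median of 0.48. Against the lung mean, the contractile genes of thyroid tissue 1 split into 2 higher and 2 lower, with a median of -0.55, whereas all 4 were lower in thyroid tissue 2, with a median of -2.12. Neither fibroblast and mural genes nor the mural roles were tested against each other, and 0 members were called without lung tissue 1 or without lung tissue 2, which leaves 1 lung library.

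Of the fibroblast genes lower in thyroid tissue, MFAP4 had the largest fall. It fell by 6.05 ± 0.76 (SE) on the log2 scale (adjusted p = 0.01) from lung values of 5730.2 and 18231 to thyroid values of 160 and 148. OGN fell by 3.51 ± 0.55 (SE) on the log2 scale (adjusted p = 0.018), PDGFRA fell by 2.85 ± 0.53 (SE) on the log2 scale (adjusted p = 0.028), FBLN5 fell by 2.70 ± 0.33 (SE) on the log2 scale (adjusted p = 0.0092) and BGN fell by 2.37 ± 0.34 (SE) on the log2 scale (adjusted p = 0.014), each with both thyroid values below both lung values. These genes range in role from fibril spacing in BGN and OGN to growth factor reception in PDGFRA. TAGLN fell by 3.30 ± 0.63 (SE) on the log2 scale (adjusted p = 0.03), the only mural gene called in this contrast. Its adjusted p was 0.079 with the set of libraries as a term, and all the fibroblast genes just named were called there too. In that fit 5 members were lower and 2 higher, against 3.02% and 2.62% of all tested genes.

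SERPINF1 and TNC were the members called higher in thyroid tissue. SERPINF1 stood at 2751 and 2876 in thyroid and 645 and 491 in lung, a log2 difference of 2.32 ± 0.40 (SE) with an adjusted p of 0.023, and TNC at 3128 and 1486 and 84.6 and 257, one of 3.86 ± 0.72 (SE) with an adjusted p of 0.029. With the set of libraries as a term SERPINF1 kept an adjusted p of 0.04 and TNC had 0.10. LUM and DCN also stood on the thyroid side, with log2 differences of 2.06 and 0.74 and adjusted p of 0.13 and 0.47, so that the small leucine-rich proteoglycans did not share 1 direction between the tissues.

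RGS5 was the mural gene that stood highest in thyroid relative to lung, at 575 and 3870.4 against 247 and 216. The thyroid tissues differed 6.73-fold, and the log2 difference of 2.69 ± 0.89 (SE) did not pass the test (adjusted p = 0.13). With the set of libraries as a term, which sets thyroid tissue 2 against lung, it was 4.06 with an adjusted p of 0.022. ABCC9 was likewise at 715 and 1666 in thyroid and 198 and 287 in lung (adjusted p = 0.13), and KCNJ8 at 165 and 265 and 141 and 158 (adjusted p = 0.71). Contractile genes went the other way in thyroid tissue 2, in which all 4 lay below the lung mean on the log2 scale, CNN1 by the widest margin (105 and 13.8 in thyroid, 146 and 764 in lung).

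**Figure D5:**
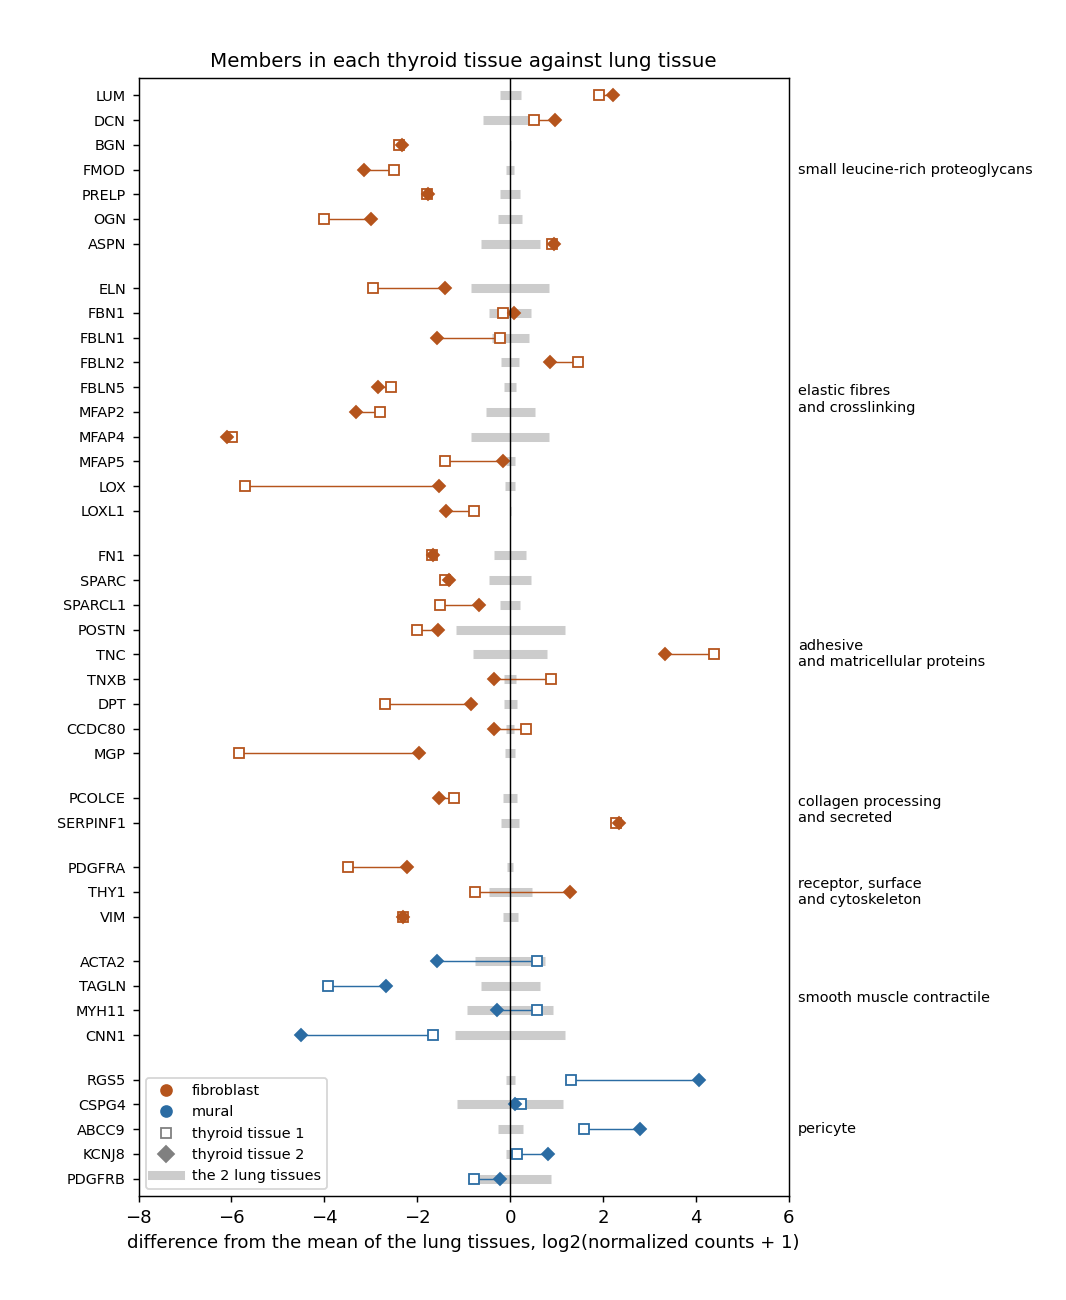
Each member in thyroid tissue 1 (open squares) and thyroid tissue 2 (filled diamonds) as a difference from the mean of the lung tissues on the log2(normalized counts + 1) scale, with a grey bar for the span of the 2 lung tissues. Most fibroblast genes lie left of 0, MFAP4 farthest among those called, whereas RGS5 and ABCC9 lie right of it, and squares and diamonds of LOX, MGP, CNN1 and RGS5 are far apart.

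The thyroid tissues differed from each other in these genes. For 24 of the 40 members, thyroid tissue 2 was the higher one, and the median of its difference from thyroid tissue 1 was 0.06 on the log2 scale over all members, -1.50 over the contractile genes and 0.67 over the pericyte genes. LOX was 19.3-fold and MGP 14.7-fold higher in thyroid tissue 2, and CNN1 was at 0.132 times its level in thyroid tissue 1. As the tissues also belong to different sets of libraries, tissue and set cannot be told apart here.

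In the genome, the 40 members lie on 17 chromosomes, and 4 pairs of them are neighbours (GENCODE M21, GRCm38). DCN and LUM lie 47.0 kb apart at chr10:97479609-97572703, ASPN and OGN 40.5 kb apart at chr13:49544443-49624501, PRELP and FMOD 115.8 kb apart at chr1:133910304-134048277, and KCNJ8 and ABCC9 16.2 kb apart at chr6:142564837-142702315. Both genes of the pairs on chromosomes 10, 13 and 6 were lower in TFCOs than in thyroid tissue, and neither gene of the pair on chromosome 1 was called. PRELP stood at up to 7589.8 normalized counts in TFCOs while its neighbour FMOD reached no more than 23.8.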

How the data were processed

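RNA was measured in 8 libraries, grouped by their titles. The authors deposited normalized counts, a signal of reads per gene divided by 1 size factor per library. Per the methods, polyA RNA was sequenced as paired-end reads and mapped to the mouse genome, and the authors used DESeq2. Per the labels, an adapted CEL-Seq library was made, with BWA 0.6.2-r126, hg38 and mm10. The table does not settle these differences. All values above 0 were whole multiples of 1 step per library (tolerance 0.01), so that precision is set by 9755081 to 16904865 reads per library and by the spread between samples. Intervals and floors cover counting error only.

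Tests used limma 3.58.1 (R 4.3.3) with a variance trend and Benjamini-Hochberg adjustment, applied to log2(normalized counts + 1) of the genes that reached 10 in 2 libraries or more, and the scripts were checked on simulated data. Passages of a line were averaged for comparisons with tissues (6 columns), and late against early TFCOs used all 8 libraries. The pseudocount of 1 lowers fold changes of weak genes. Nothing says whether the tissues came from separate animals, so p-values cover the spread between these samples, and permuting 2 against 2 exactly gives no p under 0.333. With the set of libraries as a term each thyroid tissue is fitted exactly. The spread between the thyroid tissues therefore does not enter those p-values, which rest on the TFCO lines and the lung tissues.

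Members and lists (other fibroblast and mural genes, and epithelial, endothelial, leukocyte, skeletal muscle, adipocyte, cartilage and tendon, Schwann cell and mesothelial markers) were chosen with earlier results of these data known. All members were described by role. Values in every library were given for the 3 members highest in TFCOs, for the 2 highest in tissues and the lowest in TFCOs of each role, and for members called against the main direction, and further members were added. Of the other lists, the 3 largest falls and rises among called genes were named. Tissue labels were checked with TG and SFTPC, chosen for that purpose. Sequence stretches of 50 bases were compared between GENCODE M21 transcripts. The alternatives were 2 pseudocounts, 2 filters, quantile normalization, equal totals, no trend, limma voom, a term for the set of libraries, unaveraged passages, a replicate block and leaving out each library. Since early and late libraries of 1 line come from the same culture, the lines pair them. Tissue numbers mark no shared animal.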

Additional observations from a re-analysis of the deposited data

Results flagged for a closer look

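Between early and late passage, the median difference of the fibroblast members was negative in mThy14 and barely positive in mThy16. The median log2 difference of the 31 genes, late minus early, was -0.74 in mThy14, with 20 genes lower and 9 higher in the late library, and 0.0207 in mThy16, with 13 lower and 16 higher. It was noted because the medians had opposite signs. In mThy14, 11 of the 31 genes were under 10 normalized counts in the early library and 18 in the late one. In mThy16 there were 12 and 13, so that many of these differences rest on few reads. The difference between the lines was not tested, since each line had 1 library per passage.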

How the results depend on the processing

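Log2 differences of most members named in each comparison were refitted. Left out were SPARCL1 between late and early TFCOs, SPARCL1 and DPT in TFCOs against lung tissue, and DCN in thyroid against lung tissue. Of the refitted differences, 1005 kept their direction and their side of the threshold, 76 lost the call, 12 gained one and 2 changed sign. The changes of sign were those of FBLN2 in TFCOs against thyroid tissue, at 0.25 with limma voom and 0.64 without early mThy14, where leaving out 1 library gave -3.39 to 0.64. The cause of these shifts was not tested, except that fewer samples enter the fits below that leave out a library. Planned count models were not run, and limma voom is the only fit on whole reads. The spread of only 2 libraries per group limits what could be called.

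In TFCOs against thyroid tissue, limma voom called 188 genes lower and 44 higher, with 13 members lower. The set of libraries as a term gave 151 and 27 genes, with 12 members lower. The 4 TFCO libraries as separate samples gave 899 and 423 genes, with 1 member, FN1, higher. In TFCOs against lung tissue, the set term gave 145 genes lower, 29 higher and 13 members lower, separate libraries gave 3220 lower and 3405 higher, and no variance trend gave 898 higher. In thyroid against lung tissue, voom gave 241 genes higher and no variance trend 1 member higher. Quantile normalization moved the median of all genes to 0.17, 0.14 and 0.32 in TFCOs against thyroid, thyroid against lung and TFCOs against lung.

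Leaving out each library in turn gave 132 to 2143 genes lower, 21 to 1942 higher, 12 to 26 members lower and 0 higher in TFCOs against thyroid tissue. In TFCOs against lung tissue it gave 186 to 3518 lower, 62 to 3475 higher, 18 to 30 members lower and 0 to 1 higher, and in thyroid against lung tissue 11 to 2132 lower, 46 to 2179 higher, 0 to 10 members lower and 0 to 3 higher. Counts of genes were smallest without a lung tissue in each of these, and counts of genes lower were largest without a thyroid tissue, where the lone sample of a group is assumed to vary like the other groups. In late against early TFCOs it gave 0 to 2 genes lower, 0 higher and 0 members.

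With the line as a replicate block, which pairs early and late TFCOs, 0 genes were called, as without it. With the tissue number as a replicate block, thyroid against lung tissue had 408 genes lower and 348 higher, with 6 members lower and 2 higher. The tissue number marks no shared animal.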

Other observations

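Of the 30 other fibroblast genes, 2 were called higher in thyroid than in lung tissue, HTRA3 and SMOC2, and 3 lower, TCF21, MXRA8 and EMILIN1. Of the 20 other mural genes, 1 was called higher, TPM2, and 0 lower, and over all tested genes 2.89% were higher and 3.16% lower. A term for the set of libraries gave 0 of these fibroblast genes higher and 3 lower, and 2 of these mural genes higher and 1 lower. SMOC2, a matricellular calcium-binding protein, was at 4434 and 6921 normalized counts in thyroid and 399.5 and 226 in lung. In TFCOs it was at 4099 and 10094 in mThy14 and at 1283 and 1129 in mThy16, early before late. Its higher line was mThy14, as for PRELP. TCF21, a transcription factor of lung fibroblasts, had the largest fall among the called genes of these lists, from 1793 and 1795 in lung to 16.3 and 19.4 in thyroid, with 5.62 to 36.9 in TFCOs.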
